A study of Mus musculus with 3 samples.

Results

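Interleukin-1 family genes were examined in macrophages sorted from the mouse heart, liver and kidney. The set was chosen by name and holds 8 genes of 24453 gene symbols in the table: the ligands Il1a, Il1b and Il18, the antagonist Il1rn, the decoys Il1r2 and Il18bp, and the receptor chains Il1r1 and Il1rap. All 8 were found, with 14 RefSeq transcripts between them, and the longest coding transcript of each was used. The 3 groups were cardiac tissue macrophages, hepatic Kupffer cells and renal tissue macrophages, with 1 library each, from C57BL/6 mice aged 8 weeks in the steady state. No group carried a transgene, deletion or treatment according to the labels. All cells were sorted as CD11b+F4/80+Ly6G-Ly6C-, a gate for macrophages that leaves out neutrophils and Ly6C-positive monocytes, and their total RNA was amplified with a low-input kit before sequencing. The labels give neither the number of mice behind a library nor their sex.

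Interleukin 1 alpha and interleukin 1 beta are inflammatory cytokines that bind the same receptor, which is built from a binding chain (Il1r1) and an accessory chain (Il1rap). Il1rn encodes the receptor antagonist, which occupies the binding chain without a signal, and Il1r2 encodes a decoy receptor that binds the ligands but lacks the signalling domain inside the cell. Interleukin 18 is a related cytokine that drives interferon gamma production in lymphocytes, and Il18bp encodes a secreted protein that captures it. Interleukin 1 beta and interleukin 18 are made as inactive precursors that caspase 1 cuts, so a transcript level is not a level of active cytokine.

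The stretches upstream of 3 genes are shown because Il1a and Il1b lie side by side and yet had unlike levels in renal macrophages, while Il1rn followed Il1a in its order across libraries. Each line is the 250 bases before a transcription start in RefSeq (GRCm38.p6, the assembly that mm10 names), 5′ to 3′ on the strand of the gene. Capitals mark matches to 6 motifs searched on both strands: kB (GGGNNNNNCC), AP-1 (TGANTCA), ISRE (GAAANNGAAA), GAS (TTCNNNGAA), PU.1 (GAGGAA) and C/EBP (TTNNGNAA). The Il1a stretch is chr2:129309973-129310222 (minus strand), the Il1b stretch chr2:129371140-129371389 (minus strand) and the Il1rn stretch chr2:24345041-24345290 (plus strand).
Il1a: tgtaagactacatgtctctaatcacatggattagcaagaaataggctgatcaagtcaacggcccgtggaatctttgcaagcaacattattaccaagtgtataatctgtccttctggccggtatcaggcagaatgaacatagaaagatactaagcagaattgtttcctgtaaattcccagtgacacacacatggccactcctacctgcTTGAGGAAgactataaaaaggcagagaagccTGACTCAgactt
Il1b: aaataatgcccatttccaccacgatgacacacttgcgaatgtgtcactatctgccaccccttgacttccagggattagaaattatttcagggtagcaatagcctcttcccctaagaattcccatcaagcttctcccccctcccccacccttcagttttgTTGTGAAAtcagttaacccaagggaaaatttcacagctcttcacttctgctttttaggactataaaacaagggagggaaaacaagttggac
Il1rn: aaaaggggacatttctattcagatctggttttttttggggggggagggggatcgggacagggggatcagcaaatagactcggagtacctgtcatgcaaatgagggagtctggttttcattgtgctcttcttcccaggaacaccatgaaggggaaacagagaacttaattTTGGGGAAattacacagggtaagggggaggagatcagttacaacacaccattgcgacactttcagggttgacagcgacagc
The Il1a stretch held an AP-1 match, TGACTCA, and TTGAGGAA, where the C/EBP and PU.1 matches overlap. The Il1b stretch held a C/EBP match, TTGTGAAA, and the Il1rn stretch another, TTGGGGAA. Il1rn has 3 listed starts, and the stretch shown precedes the start of the transcript that codes for 162 residues, not that of the transcript used for its level. The stretch before the most distant start (24336860) held an AP-1 match, TGAGTCA, and a kB match, GGGAGTGGCC. Among 32817 promoter stretches of this length in the RefSeq table, 6.753% held the AP-1 motif, 23.25% the PU.1 motif and 36.83% the C/EBP motif. The kB motif was in 45.81%, the ISRE in 2.968% and the GAS motif in 7.015%. A kB match lies just before the start of the Il1rn transcript used here, inside the first exon of another Il1rn transcript, and is shown in a window of 26 bases (chr2:24345312-24345337, plus strand).
Il1rn kB: aaatatgaGGGTTTTTCCgcttctga
All 8 genes have entries in that table, in 11 stretches, and for 5 of them a listed start is also the start of a deposited transcript. Over the 11 stretches, 4 held the kB motif, 2 AP-1, 1 GAS, 1 PU.1, 7 C/EBP and 0 the ISRE. A match describes the letters only.

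Levels are given as RPKM from the deposited table (reads per kb of exon in 1000000 counted reads), a scale per length on which genes can be set side by side. Cardiac macrophages, Kupffer cells and renal macrophages stand below for the 3 sorted libraries, each with whatever other cells it holds. Heart, liver and kidney libraries held 14460612, 16743416 and 15550846 recovered reads, summed over transcripts. Intervals are exact 95% Poisson intervals of those reads and cover counting error only, since copies made by PCR were not told apart from independent molecules. With 1 library per tissue no difference could be tested against variation between animals, and neither a standard deviation nor a p-value is given. Macrophage identity was checked with 11 marker genes, Lyz2 the most abundant. All 11 reached 1 RPKM in every library, and their summed level was 2735 RPKM in cardiac macrophages, 3044 in Kupffer cells and 2829 in renal macrophages. In sorted bulk material, fewer cells of a type and less RNA per cell cannot be told apart.

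Il1b, the cytokine most closely tied to macrophage inflammation, was among the most abundant genes of every library. It stood at 498 RPKM in cardiac macrophages (488 to 508, 9649 reads), 379.8 in Kupffer cells (372 to 388, 8515 reads) and 394 in renal macrophages (385 to 402, 8195 reads). It ranked 11 of 9061 genes with at least 1 RPKM in cardiac macrophages, 35 of 9201 in Kupffer cells and 19 of 9923 in renal macrophages. The heart was highest, and the kidney value was 1.04 times the liver value (counting interval of the ratio 1.01 to 1.07). On log2(RPKM + 1) Il1b was 0.39 higher in heart than liver, 0.34 higher in heart than kidney and 0.05 higher in kidney than liver. Il1b lies on mm10 chromosome 2, 129364578 to 129371139, minus strand, and its values count reads over its exons.

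Il1a, which encodes a cytokine also released from dying cells, was high in cardiac and Kupffer cells and low in renal macrophages. Its level was 413 RPKM in cardiac macrophages (405 to 420.2, 11726 reads), 356 in Kupffer cells (349.9 to 363, 11723 reads) and 38.5 in renal macrophages (36.3 to 40.8, 1177 reads). Its rank was 26 in cardiac macrophages, 53 in Kupffer cells and 1752 in renal macrophages. The heart value was 10.7 times the kidney value (counting interval 10.1 to 11.4) and the liver value 9.25 times (8.71 to 9.83), while heart and liver differed 1.16-fold (1.13 to 1.19). Il1a lies on chromosome 2, 129299610 to 129309972, 54.6 kb from Il1b on the same strand. In GENCODE M21, 11.2% of its exon bases are shared with Gm14023 on the opposite strand, and reads of the pair cannot be told apart because counting used both strands.

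The ratio of the 2 neighbours within a library does not depend on how libraries are scaled. Il1a stood at 0.828 times Il1b in cardiac macrophages (0.806 to 0.851), 0.938 times in Kupffer cells (0.912 to 0.965) and 0.0979 times in renal macrophages (0.0920 to 0.104). So in renal macrophages Il1b was 10.2 times as abundant as Il1a per length, and in the other libraries the 2 genes stood within 1.21-fold of each other.

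**Figure D1:**
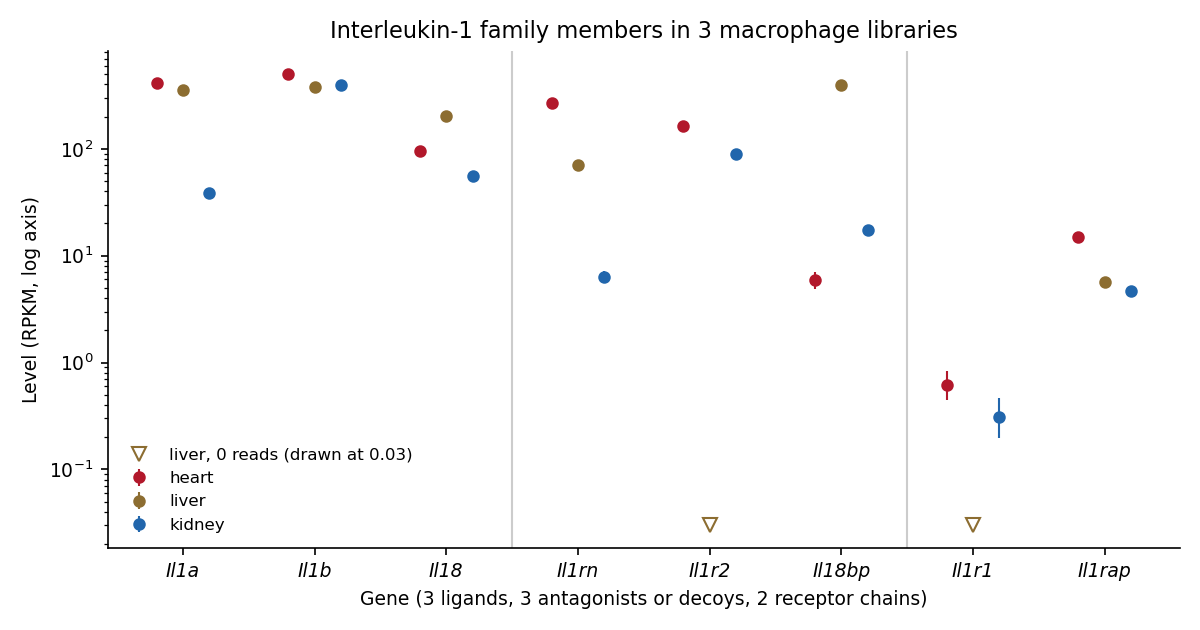
Level of each of the 8 genes in RPKM (log axis) in cardiac, Kupffer and renal cells, with exact 95% Poisson intervals as bars; open triangles are values of 0 reads, drawn at 0.03. Il1b is between 379.8 and 498 RPKM in all 3 libraries, while Il1a and Il1rn are lowest in renal macrophages, Il1r2 is at 0 in Kupffer cells and Il18bp is highest in Kupffer cells.

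A limit in the counting bears on Il1a and Il1b. The header of the deposited table names a limit of 3 tags counted at a position, which may hold down genes densely covered with reads. Il1a had 5.97 reads per bp of exon in cardiac macrophages and 5.97 in Kupffer cells, from 11726 and 11723 reads, against 0.599 in renal macrophages. Il1b had 7.21, 6.36 and 6.12 reads per bp in cardiac, Kupffer and renal cells. Only 76 genes of the heart, 136 of the liver and 75 of the kidney library exceeded 5 reads per bp. Median absolute differences follow for heart against liver, heart against kidney and kidney against liver. Up to 1 read per bp they were 0.874, 0.695 and 0.848 log2 units. From 1 to 2 they were 1.04, 0.575 and 0.875 (707, 633 and 702 genes). From 2 to 4 they were 0.766, 0.4457 and 0.6745 (559, 471 and 552 genes). From 4 to 6 they were 0.516, 0.332 and 0.444 (256, 190 and 262 genes). Above 6 they were 0.37, 0.34 and 0.29 (60, 31 and 54 genes). The densest transcripts had 12.4, 14.2 and 19.8 reads per bp in heart, liver and kidney. Dense genes are also abundant ones, so abundance and the limit cannot be told apart in these medians. The near-equal values of Il1b in 3 libraries, and of Il1a in 2, are therefore not shown to be equal expression. The same holds for Il1a beside Il1b within the heart and liver libraries. The ratio of Il1b to Il1a in the kidney library may be held down as well, since Il1b was dense there. The part of the limit in these values and ratios was not tested. The low Il1a value of the kidney library lies far below this range.

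**Figure D2:**
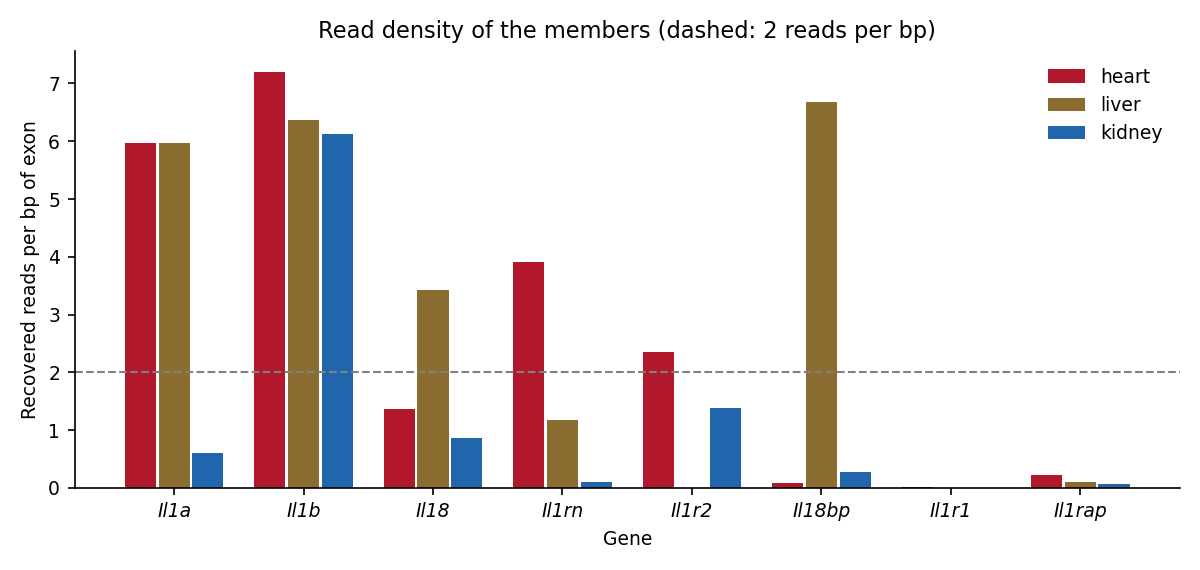
Recovered reads per bp of exon for each gene in the 3 libraries, with a dashed line at 2 reads per bp. Il1a in cardiac and Kupffer cells, Il1b in all 3 libraries and Il18bp in Kupffer cells stand near or above 6, where a limit on tags could hold values down.

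Il18 was highest in the Kupffer cell library. It stood at 94.7 RPKM in cardiac macrophages (89.4 to 100.3, 1175 reads), 204 in Kupffer cells (197 to 212, 2932 reads) and 55.2 in renal macrophages (51.2 to 59.3, 736 reads). The liver value was 2.16 times that of the heart (2.01 to 2.31) and 3.70 times that of the kidney library (3.41 to 4.02), with intervals of counting error only. At 3.42 reads per bp the liver value may be held down by the tag limit, which was not tested. Differences on log2(RPKM + 1) were -1.10 (heart minus liver) and -1.87 (kidney minus liver), both short of 4-fold. Il18 lies on chromosome 9, 50565368 to 50581837, and has no exon base in common with another gene.

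The binding protein of interleukin 18 differed far more than its ligand. Il18bp stood at 5.91 RPKM in cardiac macrophages (4.89 to 7.07, 119 reads), 399 in Kupffer cells (391 to 407, 9297 reads) and 17.5 in renal macrophages (15.8 to 19.3, 379 reads). It ranked 25 in Kupffer cells, 4992 in cardiac macrophages and 3117 in renal macrophages. The liver value was 67.5 times the heart value (56.3 to 81.5) and 22.8 times the kidney value (20.6 to 25.3), and the kidney value was 2.96 times the heart value (2.40 to 3.67). At 6.67 reads per bp the liver value lies in the range where the tag limit could hold it down. Il18bp lies on chromosome 7, 102015077 to 102018155, minus strand, and shares 2.64% of its exon bases with Numa1 on the opposite strand.

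Decoy and ligand of this pair stood in opposite order in different libraries. Il18bp was 1.95 times as abundant as Il18 in Kupffer cells (1.87 to 2.04). In the heart library Il18 was the higher of the pair by 16.0-fold (13.3 to 19.5), and in renal macrophages by 3.15-fold (2.78 to 3.58). Markers of other cells were measured beside these values. Of the 8 endothelial genes 5 were highest in Kupffer cells, 2 in cardiac and 1 in renal macrophages. The 6 B and plasma cell genes above 0 RPKM were all highest in Kupffer cells, as were the 7 hepatocyte genes. All 7 hepatocyte genes reached 1 RPKM in Kupffer cells. Their sum was 162 RPKM there, against 0.46 in cardiac and 0.22 in renal macrophages, where 6 of the 7 had 0 reads. Of the 8 endothelial genes 4 reached 1 RPKM in Kupffer cells, with a sum of 143 RPKM against 9.97 and 12.7, and of the 7 B and plasma cell genes 6, with a sum of 311 against 35.9 and 168. Cd79b, the leading gene of that last list, alone stood at 170, 32.9 and 168 RPKM in Kupffer, cardiac and renal cells. In renal macrophages 5 of the 7 genes had 0 reads. The part of these cells in the Il18 and Il18bp values was not tested. The endothelial gene Stab2, a scavenger receptor of liver sinusoids, stood at 57.5 RPKM in Kupffer cells and at 0 elsewhere.

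The antagonist Il1rn had a different level in each library. It stood at 271 RPKM in cardiac macrophages (266 to 276, 9692 reads), 69.96 in Kupffer cells (67.4 to 72.6, 2898 reads) and 6.37 in renal macrophages (5.60 to 7.22, 245 reads). The heart value was 3.87 times the liver value (3.71 to 4.04) and 42.5 times the kidney value (37.5 to 48.5), and the liver value was 11.0 times the kidney value (9.64 to 12.6). Heart minus liver was 1.94 on log2(RPKM + 1), just under 4-fold, and up to 2.18 with other scalings (TPM or the median ratio). Il1rn lies on chromosome 2, 24345371 to 24351491, and has no exon base in common with another gene.

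Set against Il1b in the same library, the antagonist ran from 0.544 times Il1b in cardiac macrophages (0.528 to 0.559) through 0.184 in Kupffer cells (0.177 to 0.192) to 0.0162 in renal macrophages (0.0142 to 0.0184). In these values Il1b exceeded its antagonist 1.84-fold in cardiac macrophages, 5.43-fold in Kupffer cells and 61.8-fold in renal macrophages. Il1b, at 6.12 to 7.21 reads per bp, and cardiac Il1rn, at 3.92, lie where the tag limit may hold values down, so these folds are those of the deposited values, and the part of the limit in them was not tested. Against Il1a the range was narrower, with Il1rn at 0.656, 0.196 and 0.165 times Il1a in cardiac, Kupffer and renal cells, and the liver and kidney intervals (0.188 to 0.205 and 0.143 to 0.190) overlapped.

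The 3 Il1rn transcripts share almost all of their exons and cannot be separated here. In GENCODE M21 the one used codes for 178 residues, the length of the secreted form, and the others for 159 and 162, the intracellular forms, which lack the signal peptide. The transcript of 159 residues, with its own distant first exon, had 9472 reads in cardiac macrophages, only 24 more than the transcript of 162 residues with 9448. Those 2 transcripts differed by 3 reads in Kupffer cells (2833 and 2830) and by 0 in renal macrophages (240 each).

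**Figure D3:**
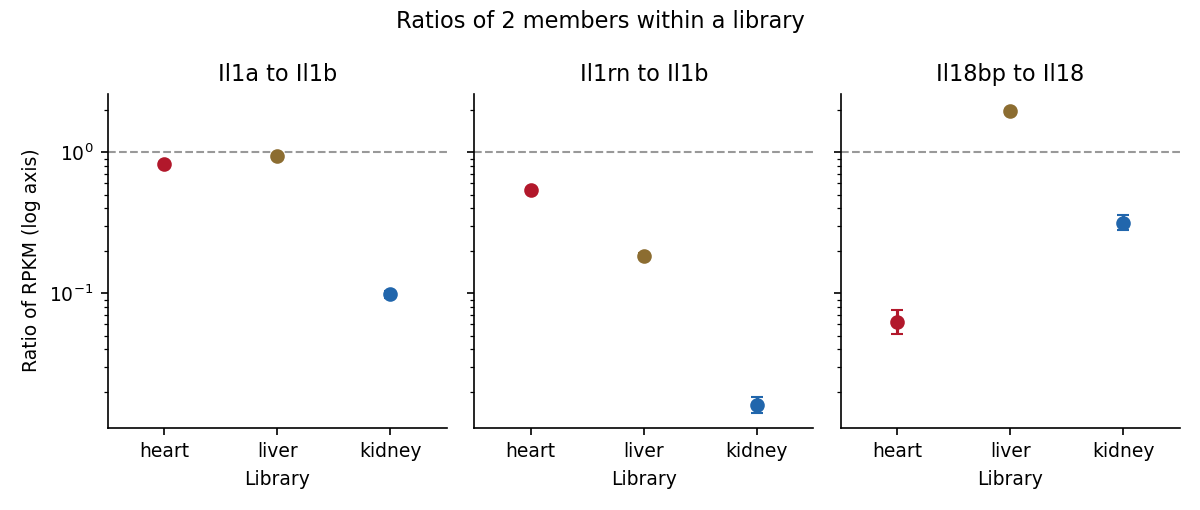
Ratio of RPKM of Il1a to Il1b, Il1rn to Il1b and Il18bp to Il18 within each library (log axis), with exact 95% intervals of counting error; the dashed line is equality. Il1rn to Il1b runs from 0.544 in cardiac macrophages to 0.0162 in renal macrophages, and Il18bp exceeds Il18 in Kupffer cells alone of the 3 libraries.

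The decoy receptor Il1r2 was present in 2 libraries and undetected in the other. It stood at 162 RPKM in cardiac macrophages (157 to 168, 3130 reads), 0 in Kupffer cells (0 reads) and 89.2 in renal macrophages (85.2 to 93.4, 1850 reads). The exact interval of 0 reads in Kupffer cells reaches 0.165 RPKM. Set against a fixed 3 reads there (0.134 RPKM), cardiac Il1r2 was 1208-fold and renal Il1r2 664-fold higher, which are not bounds from that interval. The heart value was 1.82 times the kidney value (1.72 to 1.93). Il1r2 lies on chromosome 1, 40084768 to 40125226, and has no exon base in common with another gene.

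Markers of other myeloid cells were measured beside these genes, since neutrophils are a known source of Il1r2, Il1b and Il1rn. Of 13 neutrophil genes 4 reached 1 RPKM in cardiac macrophages, 2 in Kupffer cells and 1 in renal macrophages, with sums of 20.2, 36.4 and 18.1 RPKM, of which Csf3r, also known from macrophages and monocytes, gave 11.8, 31.6 and 17.8. S100a8, a calcium-binding protein very abundant in neutrophils (named after its values were seen), stood at 4.11 RPKM in cardiac macrophages, where Il1r2 and Il1rn were highest, and at 0 reads in both other libraries. Retnlg, another neutrophil gene named in the same way, stood at 1.95 RPKM there and at 0 reads elsewhere. The neutrophil genes had no single order. Of the 8 above 0 RPKM in any library, 4 were highest in cardiac macrophages, 2 in Kupffer cells and 2 in renal macrophages. The 2 in Kupffer cells were Csf3r and Mmp9, the latter at 1.66, 4.76 and 0 RPKM and also named after its values were seen. Of the 13 genes 6, 10 and 9 had 0 reads, and the part of neutrophils in the values of Il1r2, Il1b and Il1rn was not tested. Monocyte genes (10, led by Treml4, of which 9, 5 and 5 reached 1 RPKM) summed to 418, 766 and 269.8 RPKM, with 0, 4 and 3 of them at 0 reads. They had no single order either: 6 of the 10 were highest in cardiac macrophages, 3 in Kupffer cells and 1 in renal macrophages. Dendritic cell genes (8, of which 5, 4 and 5 reached 1 RPKM) summed to 298, 13.9 and 30.6, with Cd209a, a lectin of monocyte-derived dendritic cells, at 270.1 RPKM in cardiac macrophages, 0 in Kupffer cells and 10.9 in renal macrophages. The dendritic cell genes had no single order: 4 of the 8 were highest in cardiac macrophages, 1 in Kupffer cells and 3 in renal macrophages, among them Clec9a at 0.126, 1.29 and 7.24 RPKM. The part of monocytes and dendritic cells in the values of Il1r2, Il1b and Il1rn was not tested.

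The signalling receptor was scarce beside its decoy. Il1r1 had 43 reads in cardiac macrophages (0.62 RPKM, 0.449 to 0.835), 0 in Kupffer cells and 23 in renal macrophages (0.308 RPKM, 0.196 to 0.463). The exact interval of 0 reads in Kupffer cells reaches 0.0459 RPKM. Below 1 RPKM in every library, Il1r1 was the single one of the 8 genes left out of the comparison of libraries. Its heart value was 2.01 times its kidney value (counting interval 1.18 to 3.50), from 43 and 23 reads. Per length, Il1r2 stood 262 times above Il1r1 in cardiac macrophages (194 to 363) and 289.8 times above it in renal macrophages (192 to 458). Il1r1 lies on chromosome 1, 40266586 to 40316177. Fibroblasts and endothelial cells are known to carry this receptor, and 6 of 9 fibroblast and mural cell genes reached 1 RPKM in cardiac macrophages, 3 in Kupffer cells and 1 in renal macrophages, with sums of 159, 16.7 and 5.07 RPKM and 0, 5 and 4 of them at 0 reads. The 8 endothelial genes summed to 9.97, 143 and 12.7 RPKM and had no single order. Of them 2 were highest in cardiac macrophages, 5 in Kupffer cells and 1 in renal macrophages. The part of either cell type in the few Il1r1 reads was not tested.

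Il1rap, the accessory chain shared by the receptors for interleukin 1, interleukin 33 and interleukin 36, was present at moderate levels in all 3 libraries. It stood at 14.8 RPKM in cardiac macrophages (13.9 to 15.7, 976 reads), 5.68 in Kupffer cells (5.16 to 6.24, 434 reads) and 4.665 in renal macrophages (4.18 to 5.195, 331 reads). The heart was highest, at 2.60 times the liver (2.32 to 2.92) and 3.17 times the kidney value (2.80 to 3.60). The kidney value was 0.821 times the liver value (0.710 to 0.9496). Kidney minus liver was -0.24 on log2(RPKM + 1) and turned to 1.11 when the shortest transcript was taken, which also moved the heart to 4.25 times the liver (3.38 to 5.38) and 1.62 times the kidney value (1.37 to 1.92). Il1rap lies on chromosome 16, 26581705 to 26717748, and shares 4.86% of its exon bases with Gm20319 on the opposite strand.

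Il1rap has 4 transcripts in the table, with unlike ends. The longest in exon length codes for 570 residues and is the membrane-bound chain, a pair with 685 and 640 residues ends farther downstream, and the shortest, with 360 residues, stops before the membrane segment and codes for the soluble chain. The short transcript stood at 10.4 RPKM in cardiac macrophages (352 reads), 2.45 in Kupffer cells (96 reads) and 6.425 in renal macrophages (234 reads). It was 2.62 times higher in renal macrophages than in Kupffer cells (counting interval 2.06 to 3.36), while the long transcript was 0.821 times the liver value there (0.710 to 0.9496). Per length the short transcript stood at 0.703 times the long one in cardiac macrophages, 0.431 times in Kupffer cells and 1.38 times in renal macrophages. In GENCODE M21 the short transcript has 2306 exon bases, of which 1182 also belong to the long one and 1124 are its own. Reads on shared exons count for each transcript, so these values are not levels of separate proteins.

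**Figure D4:**
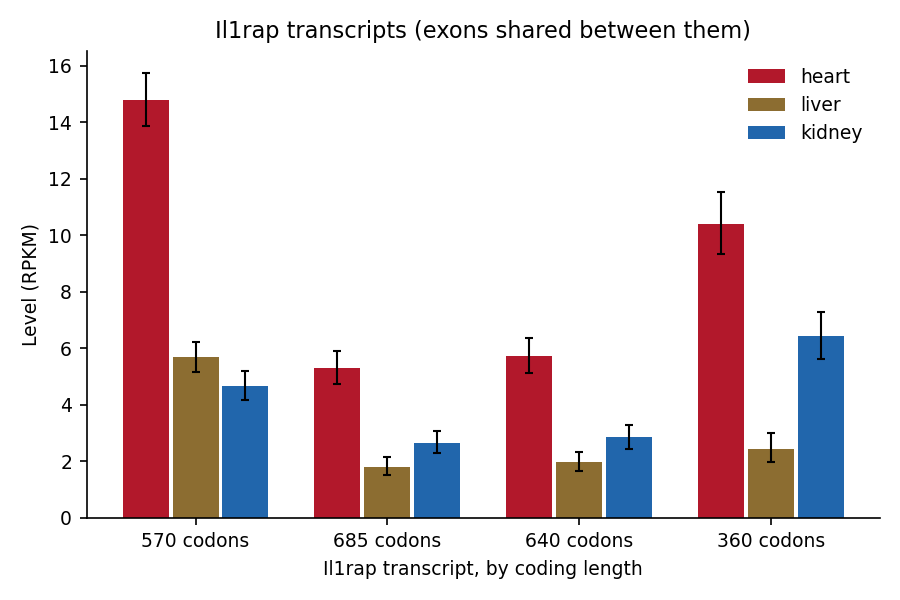
RPKM of the 4 Il1rap transcripts, named by coding length, in the 3 libraries, with exact 95% Poisson intervals; reads on shared exons count for each transcript. The transcript of 360 codons is higher in renal macrophages (6.425) than in Kupffer cells (2.45), whereas the transcript of 570 codons is not (4.665 and 5.68).

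Across the 8 genes, a difference of at least 2 on log2(RPKM + 1), which is 4-fold on this scale, was counted as higher or lower. A gene entered the comparison once any library gave it 1 RPKM, which held for 11482 genes and 7 of the 8. Heart against liver gave 1 gene higher in cardiac macrophages (Il1r2) and 1 lower (Il18bp), where 5.33% of all genes compared were higher and 7.13% lower, 12.5% together. The split over all genes became 11.6% and 9.56% with TPM, and 6.61% and 5.9% with median ratio scaling. Under either scaling the 8 genes gave 2 higher, with Il1rn added, and 1 lower. Heart against kidney gave 2 higher in cardiac macrophages (Il1a and Il1rn) and 0 lower, where 2.40% of all genes were higher and 5.10% lower, 7.50% together. Kidney against liver gave 1 higher in renal macrophages (Il1r2) and 3 lower (Il1a, Il1rn and Il18bp), where 7.57% of all genes were higher and 5.10% lower, 12.7% together. The 3 comparisons share libraries, and the genes that passed include ones that reached 1 RPKM through the library where they are high, so these counts are descriptions.

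Medians over the 7 genes were 0.39 (heart minus liver), 0.86 (heart minus kidney) and -1.87 (kidney minus liver), beside -0.16, -0.23 and 0.04 over all genes compared. TPM scaling moved the median of all genes to 0.00, -0.20 and 0.17 and median ratio scaling to 0.00, -0.06 and 0.06. Of the 21 differences of the 7 genes, 0 changed sign under either scaling.

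**Figure D5:**
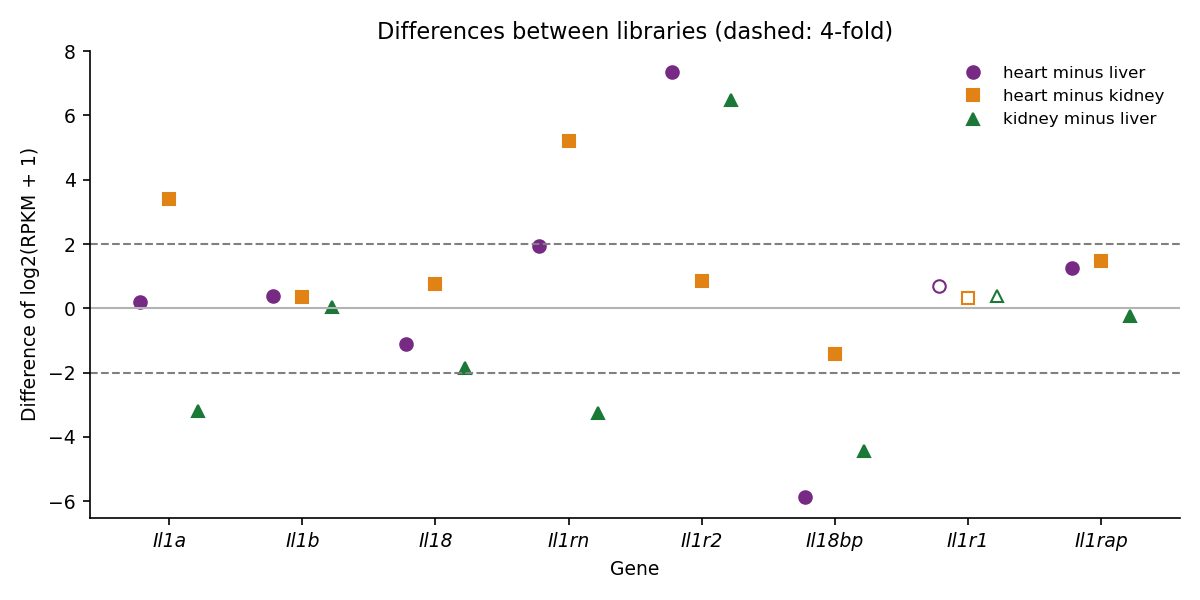
Difference of log2(RPKM + 1) between libraries for each gene, as circles (heart minus liver), squares (heart minus kidney) and triangles (kidney minus liver); dashed lines mark 4-fold, and open symbols are Il1r1, which was not compared. Il1b lies between 0.05 and 0.39 in all 3 comparisons, whereas Il1r2 reaches 7.35 and Il18bp -5.85 for heart minus liver.

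Il1r2 and Il1r1 open a row of 6 receptor genes on chromosome 1 that spans 466.9 kb, and the other 4 were far less abundant than Il1r2. Il1rl2, the receptor for interleukin 36, stood at 5.105, 3.02 and 14.1 RPKM in cardiac, Kupffer and renal cells. Il1rl1, which encodes the interleukin 33 receptor ST2, stood at 9.71, 0.723 and 7.74 RPKM. All 6 genes of the row, Il1r2 among them, had their lowest value in Kupffer cells, for Il18r1 by 0 reads against 2 in cardiac macrophages. The share of all genes lowest in Kupffer cells was not counted, so this describes the 6 genes only. Il18r1 and Il18rap, the chains of the interleukin 18 receptor, had 2 and 29 reads in cardiac macrophages, 0 and 11 in Kupffer cells and 127 and 276 in renal macrophages, the last at 1.97 and 3.64 RPKM. Il18 and Il18bp were thus abundant in Kupffer cells where the receptor of Il18 was nearly undetected. Of 11 genes found of T, NK and innate lymphoid cells, in which this receptor is best known, 5 reached 1 RPKM in cardiac macrophages, 6 in Kupffer cells and 2 in renal macrophages, with sums of 17.9, 70.1 and 17.8 RPKM.

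Sigirr, an inhibitory receptor of the family, stood at 0.385, 0 and 4.49 RPKM in cardiac, Kupffer and renal cells. Epithelial cells are known to express it, and the 7 renal tubule genes, of which 4 reached 1 RPKM in renal macrophages, summed to 287 RPKM there, 0.06 in cardiac macrophages and 0 in Kupffer cells, where 6 and 7 of them had 0 reads. Their part in the Sigirr value was not tested. Of 7 other receptor genes 5 were compared, and kidney against liver gave 3 at least 4-fold higher (Il1rl1, Il18rap and Sigirr) and 0 lower. Heart against liver gave 1 higher (Il1rl1) and 0 lower, and heart against kidney 0 in either direction. Of all genes compared, 12.7% (kidney against liver), 12.5% (heart against liver) and 7.50% (heart against kidney) were called in either direction. Their medians were 0.47, -1.52 and 2.03 (heart minus liver, heart minus kidney, kidney minus liver). Among the other ligands, Il33, an alarm signal of stromal cells, stood at 1.58 RPKM in cardiac macrophages (58 reads) with 0 reads in both others. Of the 9 fibroblast and mural genes 8 were also highest there, all but Rgs5, with Dcn (125 RPKM) giving most of the sum, and their part in the Il33 value was not tested. The 5 genes of the interleukin 36 and 38 group (Il1f5, Il1f6, Il1f8, Il1f9 and Il1f10) had 0 reads in every library.

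Genes that process and release the cytokines were counted next. Casp1, the enzyme that cuts the precursors of interleukin 1 beta and interleukin 18, stood at 114, 211 and 84.1 RPKM in cardiac, Kupffer and renal cells, the same order as Il18. Nlrp3, the sensor of the inflammasome that activates caspase 1, stood at 112, 29.3 and 26.3 RPKM, and Casp4, the enzyme that senses bacterial lipopolysaccharide in the cell, at 199.6, 35.5 and 32.1. Nlrp1b, another sensor, stood at 2.34, 0.029 and 6.69 RPKM and P2rx7, the ATP receptor that triggers release, at 20.7, 8.80 and 35.05. Of 17 such genes, heart against liver gave 1 at least 4-fold higher (Casp4), heart against kidney 2 (Casp4 and Nlrp3) and kidney against liver 1 (Nlrp1b), with 0 lower in each, where 12.5%, 7.50% and 12.7% of all genes were called in either direction. In the same order their medians were -0.19, -0.02 and -0.15.

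Of 5 genes linked to the shedding of cytokine receptors 4 were compared, and Adam10, Adam17, Bace1 (proteases) and Erap1 (an aminopeptidase) gave 0 calls in all 3 comparisons, which is little to go by with 4 genes when at most 12.7% of all genes were called in a comparison. Their medians were -0.56, -0.49 and -0.24. Adam17 stood at 37.6, 44.3 and 38.7 RPKM, Adam10 at 24.3, 60.2 and 47.4, Erap1 at 30.55, 43.7 and 35.5 and Bace1 at 2.0, 3.63 and 4.135. In the receptor's signalling chain Myd88, the adaptor, stood at 39.1, 7.08 and 31.8 RPKM in cardiac, Kupffer and renal cells, and Map3k8, a kinase that activates ERK, at 143, 14.7 and 75.3. Peli2, a ubiquitin ligase, stood at 2.25, 0.153 and 3.47 and Tab1, a partner of the kinase TAK1, at 0.355, 7.61 and 7.80. Of 17 genes compared, heart against liver gave 2 higher (Myd88 and Map3k8) and 1 lower (Tab1), heart against kidney 0 higher and 1 lower (Tab1), and kidney against liver 2 higher (Myd88 and Map3k8) and 0 lower. In the same order, 12.5%, 7.50% and 12.7% of all genes were called in either direction. The medians were 0.09, 0.29 and 0.03.

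Of 15 genes known to respond to interleukin 1, 12 were compared. Heart against liver gave 3 higher (Cxcl1, Ptgs2 and Csf2) and 0 lower, and heart against kidney gave those 3 and Il6. Kidney against liver gave 2 higher (Cxcl1 and Ptgs2) and 1 lower (Il6). In the same order, 12.5%, 7.50% and 12.7% of all genes were called in either direction. Cxcl1, a neutrophil chemokine, stood at 393, 14.6 and 81.8 RPKM in cardiac, Kupffer and renal cells, and Ptgs2, the inducible prostaglandin synthase, at 249, 0.054 and 32.5. Il6, a cytokine of the acute phase, stood at 297, 293 and 0 RPKM and Csf2, a growth factor of myeloid cells, at 110.4, 0 and 0. Cxcl1 and Ptgs2 had the order of Il1r2, and Il6 that of Il1a with its lowest value in renal macrophages. The list's medians were 1.003, 1.20 and 0.07.

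Interferon gamma is known to induce Il18bp, and 9 of its other response genes were compared. Irf1, a transcription factor, stood at 65.9, 23.2 and 209 RPKM in cardiac, Kupffer and renal cells, Ciita, the activator of MHC class II genes, at 1.45, 4.29 and 23.6, and the chemokine Cxcl9 at 4.17, 26.1 and 45.1, each highest in renal macrophages. Of the 9 genes 4 were highest there, 3 in Kupffer cells as Il18bp was, and 2 in cardiac macrophages. The 3 were Gbp2 at 42.9, 131 and 73.4 RPKM, Irf8 at 10.65, 27.8 and 26.05 and Socs1 at 0.104, 1.52 and 0.145, named after their values were seen. Gbp5, a guanylate-binding protein, stood at 17.15, 10.9 and 1.09. Kidney against liver gave 2 higher (Irf1 and Ciita) and 1 lower (Gbp5), heart against liver 0 higher and 1 lower (Cxcl9), and heart against kidney 1 higher (Gbp5) and 2 lower (Ciita and Cxcl9). Of all genes compared, 12.7% (kidney against liver), 12.5% (heart against liver) and 7.50% (heart against kidney) were called in either direction. The medians were -1.18, -1.22 and -0.09. Of 11 immediate early genes, which a sort can itself induce, heart against liver gave 1 at least 4-fold higher (Ier3) and 0 lower, and the other comparisons gave 0. The shares over all genes were those just given. The medians were 0.67, -0.13 and 0.64. Klf6 stood at 349, 103 and 258 RPKM, Ier3 at 210.4, 34.9 and 125, Atf3 at 139, 106 and 307 and Egr2 at 14.1, 5.59 and 20.5. The part of the sort in the cytokine values was not tested.

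The genes nearest to each member over the 3 libraries were found by Euclidean distance on log2(RPKM + 1) among 10712 coding genes. Nearest to Il1b were Sepp1 (distance 0.118), which encodes a selenium carrier, and Adgre1 (0.222), which encodes F4/80. Nearest to Il18 were P2ry12 (0.107) and P2ry13 (0.399), neighbouring receptors for ADP, and nearest to Il1rap were Ranbp2 (0.204) and Eea1 (0.252). The members with larger contrasts had no such close companion. Il1rn was nearest to Ifnb1 (0.977), at 184, 46.3 and 4.02 RPKM, and Nupr1 (1.14). Il1r2 was nearest to Tnfsf9 (0.984) and Ptgs2 (1.56), Il1a to Msr1 (1.25) and Hilpda (1.39), and Il18bp to Acp5 (1.04) and Abcg3 (1.86). These distances rest on 3 libraries and include the level.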

How the data were processed

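RNA sequencing of 3 sorted macrophage libraries, 1 per tissue, was analysed from a deposited table of 34711 RefSeq transcripts. The authors' values are RPKM, computed per the file headers with HOMER analyzeRepeats.pl (exon reads of either strand, scaled to 1000000 in each library, at most 3 tags per position); the columns are named FPKM. CASAVA, STAR and mm10 are named in the submitters' processing notes, with versions and settings not given in the sources used here. RPKM times exon length in kb summed to 1000000 in each library. Low values (up to 500 reads) were whole multiples of a step, which gave the reads: all of 14395, 10952 and 13147 such values (heart, liver, kidney) lay within 0.1 of a whole read. The recovery and the differences were tested on simulated data.

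The longest coding transcript per symbol was kept. Differences were taken on log2(RPKM + 1) with no test, folds are ratios of RPKM with exact Clopper-Pearson intervals, and a fold against 0 reads uses 3 reads. Alternatives were pseudocounts of 0.1 and 5, TPM, median ratio scaling, no filter, other transcripts and leaving out dense genes. The members and the 20 gene lists (8 of pathways and 12 of cell types, 195 of 200 symbols found) were chosen with earlier results of these data known. Named genes were all members, up to 4 genes per pathway list with the largest differences, Casp1, Myd88 and 5 other family genes whatever their values, the 2 nearest genes of each member with at least 10 RPKM, leading markers and genes of the sort. S100a8, Retnlg, Mmp9, Clec9a, Rgs5, Gbp2, Irf8, Socs1 and the 5 ligand genes at 0 reads were named after their values were seen. Sequences came from RefSeq tables (GRCm38.p6) and overlaps and coding lengths from GENCODE M21. Python 3.11.15, SciPy 1.17.1 and pandas 2.3.3 were used.

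Lists of other cells not described beside a result gave the following. Mast cell, basophil and eosinophil genes (9) summed to 2.98, 35.4 and 1.47 RPKM (heart, liver, kidney), led by Ccr3 at 2.71, 33.2 and 0.039. Cardiomyocyte genes (7) summed to 12.3, 0.04 and 4.43 RPKM, led by Myl2. Of the sorted proteins' genes, Itgam (CD11b) stood at 93.7, 27.9 and 38.0 RPKM and Ly6c2 at 9.74, 8.41 and 5.58, and Ly6g at 0.151, 0.065 and 0.14.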

Additional observations from a re-analysis of the deposited data

How the results depend on the processing

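The limits of these data are 1 library per tissue, counting on both strands, a limit on tags per position and amplification of small amounts of RNA. No paired analysis was possible because each group has 1 library and no test was made. Over 21 differences of 7 genes and the 7 alternatives run for all of them, 1 changed sign (Il1rap, kidney minus liver, with the shortest transcript) and 1 changed its side of 4-fold (Il1rn, heart minus liver). The number of members at least 4-fold apart was 2, 2 and 4 for heart against liver, heart against kidney and kidney against liver. It was 3 for heart against liver with TPM or median ratio scaling. It was 0 in each comparison without the 6 members of more than 2 reads per bp, since Il1rap alone was then compared.

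Counts over all genes depended on the pseudocount and on TPM. Genes at least 4-fold apart numbered 1431 for heart against liver, 3268 and 465 with pseudocounts of 0.1 and 5, and 2797 with TPM. For heart against kidney they numbered 861, 2350, 213 and 1978, and for kidney against liver 1455, 3178, 391 and 2918. Counts in the lists moved likewise. Other family receptors for kidney against liver went from 3 to between 0 and 5, signalling genes for heart against liver from 3 to between 1 and 5, processing genes for heart against kidney from 2 to between 1 and 4 and for kidney against liver from 1 to between 0 and 4. Counts of interleukin 1 responsive genes stayed at 3, 4 and 3 in the 3 comparisons under both pseudocounts, both scalings and no filter.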
